A study of Homo sapiens with 6 samples.

Results

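The interferon-stimulated genes examined here were 49 genes that cells switch on in response to interferon, chosen by name. The choice was made with earlier results of these data known, which limits comparisons of their shares with all genes. All 49 had a row in the table of 26334 genes. They were measured by RNA-seq in MCF10DCIS.com, an established human breast cancer cell line that forms lesions resembling ductal carcinoma in situ in mice. Cells carried a pRSI vector with a U6-driven shRNA against luciferase (shLuc, the neutral control, 3 libraries) or against WDR5 (shWDR5, 3 libraries), and both groups also carried TagRFP and a puromycin resistance gene and were selected with puromycin. The study's methods describe pooled shRNAs against WDR5 in this line. WDR5 is a subunit of the complexes that methylate histone H3 at lysine 4. The labels name no interferon, virus or other stimulus, so the values are taken as levels without an added one, in cells that had received a vector and puromycin. Effects of the vector or of the shRNAs other than on WDR5 were not tested. The study's methods describe its data in general as from biological replicates, and the labels do not say whether these libraries came from separate cultures, so the p-values measure the spread between these libraries, part of which may be technical.

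Interferons are secreted proteins that warn cells of infection. Type I interferons act through IFNAR1 and IFNAR2 and the kinases JAK1 and TYK2, and the resulting complex, which holds STAT2 and IRF9, binds a DNA element called the interferon-stimulated response element (ISRE). Interferon gamma acts largely through the gamma-activated site (GAS). The induced proteins recognise foreign RNA, block virus entry and translation, degrade RNA or modify other proteins, and many epithelial and tumor cells express part of this set at a low tonic level.

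WDR5 itself was measured at 52.6, 48.5 and 51.3 CPM in shLuc and 23.4, 24.4 and 20.8 CPM in shWDR5, where CPM is the count relative to the scaled size of the library. It fell to 0.450 times the shLuc level (log2 fold change -1.15, SE 0.07, adjusted p = 8.67e-07). Libraries held 38218108 to 57640167 counts each, and 3 counts, the limit that a count of 0 allows, corresponded to 0.0528 to 0.0774 CPM. Those limits cover counting error only. Among marker lists, all 7 basal genes and all 5 epithelial genes were measured above 1 CPM in at least 1 library, and the epithelial list summed to 4093 to 4290 CPM in shLuc and 3684 to 3963 CPM in shWDR5. Of the leukocyte list, 5 of 8 genes passed 1 CPM, with CD68 at 10.3 to 13.05 CPM and LYZ at 2.36 to 3.14 CPM, while PTPRC and CD3E reached at most 0.151 CPM. Above 1 CPM were also 1 of 6 fibroblast genes (COL1A1), 2 of 3 endothelial genes (PECAM1 and CDH5) and 1 of 4 plasmacytoid dendritic genes (TCF4). Levels of several markers differed between groups. All 7 basal markers rose, and their summed level went from 9103 to 10540 CPM in shLuc to 15440 to 17760 CPM in shWDR5. Among them KRT6A rose at 1.83 and KRT14 at 1.29 on the log2 scale. Of the epithelial list KRT19 rose at 1.83 from a low level, CDH1 fell at -1.03 and EPCAM fell at -0.33. KRT8 (0.04) and KRT18 (-0.12), the most abundant of that list, did not pass. The summed leukocyte list, mostly CD74, was 74.3 to 82.4 CPM in shLuc and 101 to 112 CPM in shWDR5, with CD14 at -1.05 and ITGAM at 1.97 on the log2 scale. The summed fibroblast list went from 22.1 to 23.9 CPM in shLuc to 14.99 to 18.03 CPM in shWDR5, where COL1A1 fell at -0.50, the endothelial list from 7.58 to 7.93 CPM to 4.71 to 5.36 CPM, where PECAM1 fell at -0.71, and the plasmacytoid dendritic list from 10.7 to 12.4 CPM to 14.7 to 15.9 CPM, where TCF4 rose at 0.41. The part of these shifts in the results below was not tested. In such bulk RNA, fewer cells expressing a gene and less RNA per cell cannot be told apart.

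Promoter sequences were compared first, because the ISRE and GAS are the elements through which these genes are known to respond. RefSeq windows from 250 bases before to 50 bases after the gene start (GRCh38.p14) were held for 39 of the 49 genes, with DDX58 listed there as RIGI. DHX58, OAS2, OASL, IFIT2, IFITM2, MX2, GBP2, USP18, IRF7 and TRIM22 had none. An ISRE core, searched as GAAANNGAAA on both strands, was found in 26 of 39 windows (66.7%), against 3.6% of all 27305 promoters and 2.9% of the promoters of the genes tested. A GAS core, searched as TTCNNNGAA on both strands, was found in 11 of 39 (28.2%), against 7.9% of all promoters and 6.5% of those of the genes tested. Of its 12 matches, 4 overlapped an ISRE match. The median content of G and C bases was 55.3% in the 39 windows, 58.3% in all promoters and 64.7% in those of the genes tested. The part of this difference in the shares was not tested. The stretches below are shown because they carry these elements in genes that fell, rose or did neither. Each is written in the direction of transcription, with every ISRE match in capitals. The genes that fell are given by an OAS enzyme, an exonuclease, a helicase, a pair of IFIT genes, IFITM1 and IFI44.
OAS3, chr12:112938301-112938370, plus strand: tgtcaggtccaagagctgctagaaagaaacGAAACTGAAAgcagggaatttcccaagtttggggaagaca
ISG20, chr15:88638917-88638986, plus strand: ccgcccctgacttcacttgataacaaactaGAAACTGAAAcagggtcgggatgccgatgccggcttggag
DDX60, chr4:168318784-168318853, minus strand: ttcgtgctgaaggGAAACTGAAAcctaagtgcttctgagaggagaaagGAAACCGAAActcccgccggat
IFIT3, chr10:89327828-89327897, plus strand: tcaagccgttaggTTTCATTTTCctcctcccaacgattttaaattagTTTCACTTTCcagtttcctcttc
IFIT5, chr10:89414513-89414582, plus strand: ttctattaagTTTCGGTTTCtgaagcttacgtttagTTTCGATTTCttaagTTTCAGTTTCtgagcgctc
IFITM1, chr11:313987-314056, plus strand: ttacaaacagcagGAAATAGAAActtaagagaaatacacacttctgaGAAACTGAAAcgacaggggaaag
IFI44, chr1:78649741-78649810, plus strand: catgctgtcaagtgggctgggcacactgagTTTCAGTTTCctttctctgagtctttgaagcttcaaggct
From genes that rose, the stretches of IFI27, IFI6 and IFIH1 held ISRE matches, and in IRF1 the capitals mark a GAS match instead.
IFI27, chr14:94110604-94110673, plus strand: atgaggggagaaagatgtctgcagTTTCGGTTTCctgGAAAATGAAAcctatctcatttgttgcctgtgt
IFI6, chr1:27672257-27672326, minus strand: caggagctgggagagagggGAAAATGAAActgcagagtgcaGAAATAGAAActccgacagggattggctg
IFIH1, chr2:162318801-162318870, minus strand: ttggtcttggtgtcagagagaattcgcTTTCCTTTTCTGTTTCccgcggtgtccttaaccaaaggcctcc
IRF1, chr5:132490859-132490928, minus strand: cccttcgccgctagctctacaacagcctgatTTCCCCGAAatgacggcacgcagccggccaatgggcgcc
From genes that did not pass the test, IFIT1 and ISG15 held a pair of matches each.
IFIT1, chr10:89392483-89392552, plus strand: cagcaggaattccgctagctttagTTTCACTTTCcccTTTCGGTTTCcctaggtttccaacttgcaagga
ISG15, chr1:1013357-1013426, plus strand: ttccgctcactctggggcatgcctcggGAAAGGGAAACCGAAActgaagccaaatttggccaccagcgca
Capitals beginning with T are the same core read on the opposite strand. Among genes that fell, 14 of 21 windows held the ISRE core (66.7%), compared with 3 of 5 among those that rose (60%) and 6 of 9 among those that did not pass (66.7%). The GAS core was in 6 of 21 windows of genes that fell (28.6%) and in 2 of 5 of those that rose (40%). Those that rose include IFI27, which held both cores and reached the test only through its shWDR5 libraries, where it was high. These shares of small numbers of promoters carry no test. A match describes the letters in the window and is not a measured binding site.

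Most interferon-stimulated genes were expressed at a lower level after WDR5 silencing. Of the 49, 44 passed the filter on low counts, which required 0.213 CPM in at least 3 libraries. By edgeR's quasi-likelihood test with Benjamini-Hochberg adjustment over 16117 genes, at an adjusted p under 0.05, 29 of the 44 fell (65.9%) and 6 rose (13.6%), and 9 did not pass. Silencing moved much of the transcriptome, and 29.9% of all genes tested fell and 26.6% rose. The median log2 fold change of the 44 was -0.44, beside -0.01 over all genes tested. IFI27 passed the filter only through its shWDR5 libraries, so it had to differ to be tested. Over the 43 genes that reached the filter level in all 6 libraries, 29 fell and 5 rose, with a median of -0.44. With the thresholds that the study's methods give (adjusted p under 0.05, absolute log2 fold change of at least 0.6 and a level above 0.5 RPKM, which is CPM divided by exonic length in kilobases), 16 fell and 1 rose, beside 10.5% and 7.90% of all genes tested.

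**Figure D1:**
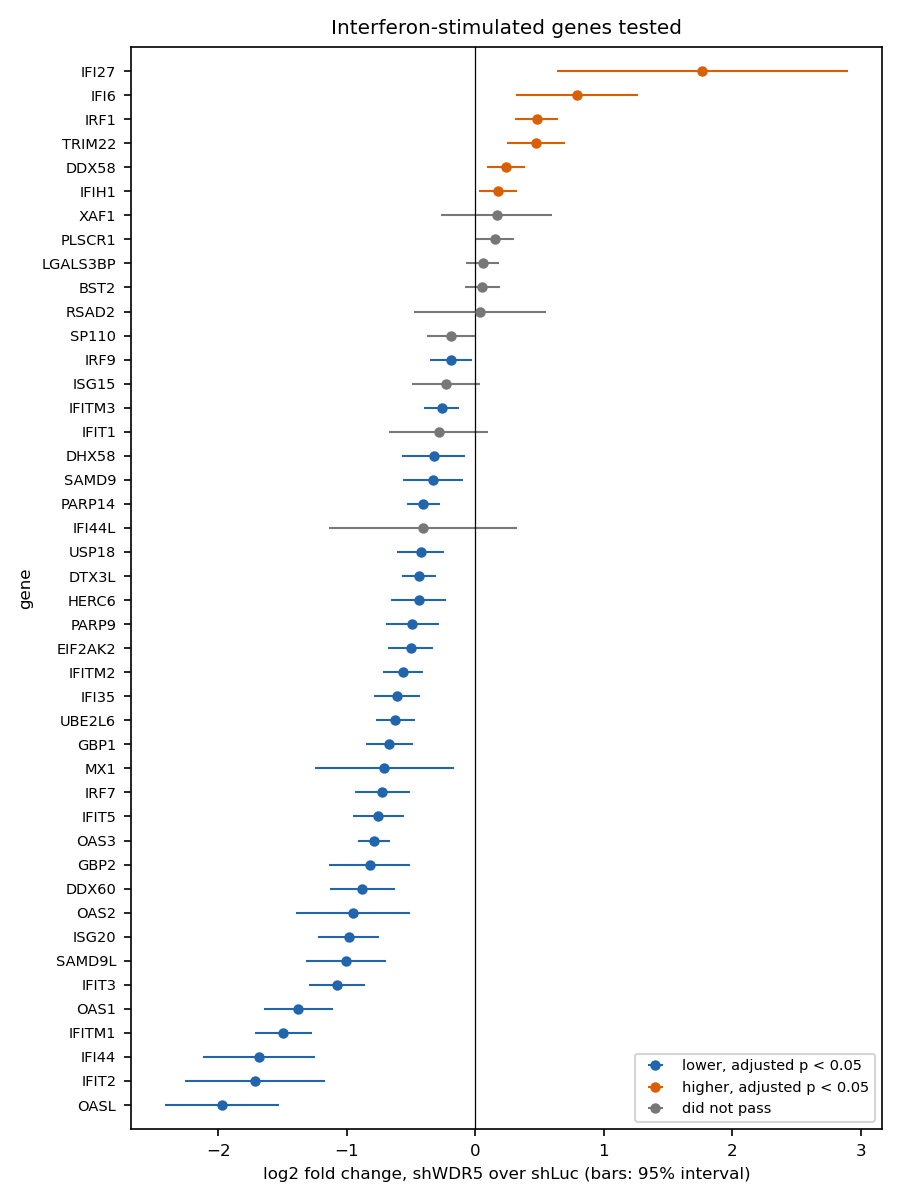
Log2 fold change of shWDR5 over shLuc (horizontal axis) for each of the 44 interferon-stimulated genes tested (vertical axis), with 95% intervals as bars. The 29 genes in blue fell, led by OASL at -1.97, the 6 in orange rose and the 9 in grey did not pass. IFI27, which entered the test only through shWDR5, has the widest interval.

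**Figure D2:**
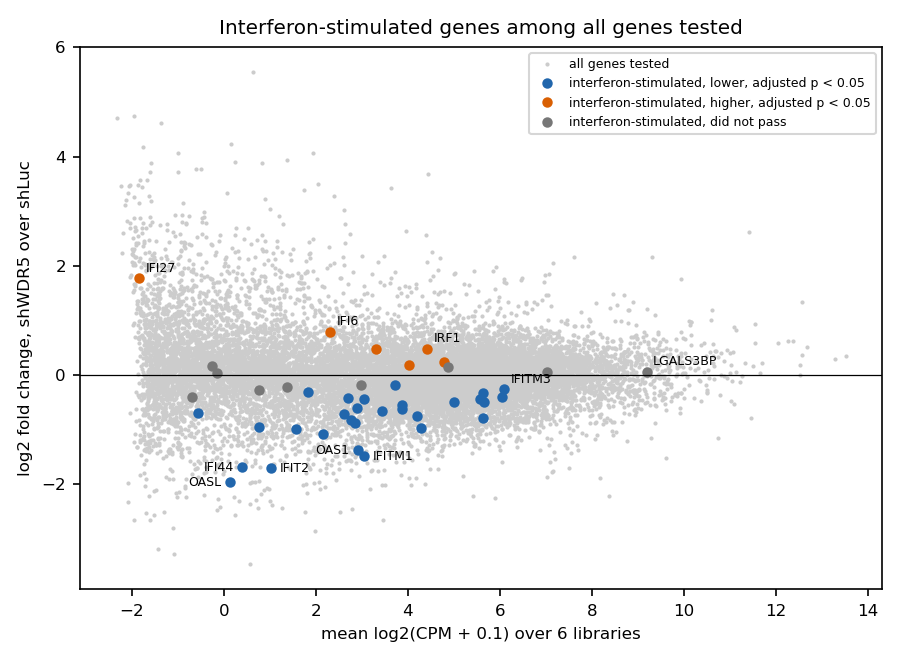
Log2 fold change (vertical axis) against mean log2(CPM + 0.1) over the 6 libraries (horizontal axis) for all 16117 genes tested in light grey, with the 44 interferon-stimulated genes on top. The genes that fell are spread over low and high levels, and LGALS3BP, with the highest CPM, lies near 0 at 0.06.

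The OAS family and the exonuclease ISG20 fell without exception, all 5 of 5, with a median log2 fold change of -0.98. OAS1, OAS2 and OAS3 sense double-stranded RNA and make oligoadenylates as a second messenger, and OASL is a related protein without that activity. OASL was measured at 1.82, 1.81 and 2.26 CPM in shLuc and 0.410, 0.633 and 0.419 CPM in shWDR5. Every shWDR5 library lay below every shLuc library, and OASL fell to 0.255 times the control level, the largest decrease among the 49 (log2 fold change -1.97, SE 0.20, adjusted p = 1.69e-05). OAS1 was measured at 11.2, 10.99 and 13.7 CPM in shLuc and 5.31, 4.47 and 4.04 CPM in shWDR5 and fell to 0.385 times (log2 fold change -1.38, SE 0.12, adjusted p = 6.46e-06). OAS3 carried the highest level per length of the family, 9.801 RPKM in shLuc. Its values were 65.8, 66.1 and 63.3 CPM in shLuc and 38.4, 38.02 and 36.6 CPM in shWDR5, 2 narrow groups well apart (log2 fold change -0.79, SE 0.06, adjusted p = 1.56e-06). OAS2, a low gene, gave 2.37, 1.57 and 2.75 CPM in shLuc and 1.25, 1.06 and 1.17 CPM in shWDR5 (log2 fold change -0.96, SE 0.20, adjusted p = 0.00207). ISG20, which degrades single-stranded RNA, was measured at 29.6, 28.9 and 23.9 CPM in shLuc and 15.8, 13.3 and 12.6 CPM in shWDR5 and fell to 0.505 times, again with no overlap between groups (log2 fold change -0.98, SE 0.11, adjusted p = 2.62e-05).

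The RNA sensors split in direction, with 2 of 4 higher and 2 lower. DDX58, which encodes RIG-I, was measured at 24.00, 24.8 and 26.8 CPM in shLuc and 29.6, 28.9 and 30.5 CPM in shWDR5. IFIH1, which encodes MDA5, gave 14.8, 15.2 and 15.6 CPM in shLuc and 17.3, 16.4 and 17.8 CPM in shWDR5. Both were higher in every shWDR5 library than in any shLuc library, by a small amount: DDX58 rose to 1.18 times (log2 fold change 0.24, SE 0.07, adjusted p = 0.0111) and IFIH1 to 1.13 times (log2 fold change 0.18, SE 0.07, adjusted p = 0.0471). DDX60, a helicase described as a cofactor of the sensors, moved the other way, at 9.61, 9.95 and 9.67 CPM in shLuc and 4.25, 5.91 and 5.67 CPM in shWDR5 (log2 fold change -0.88, SE 0.11, adjusted p = 9.40e-05). DHX58, which encodes the third sensor of the family, LGP2, fell slightly, with 4.13, 4.101 and 3.42 CPM in shLuc and 2.89, 3.13 and 3.29 CPM in shWDR5 (log2 fold change -0.33, SE 0.11, adjusted p = 0.0289). The calls on IFIH1 and DHX58 were marginal. Leaving out any 1 of the 6 libraries ended the IFIH1 call, with log2 fold changes of 0.15 to 0.21, and leaving out shLuc replicate 1 or 2 or shWDR5 replicate 1 or 2 ended the DHX58 call, with log2 fold changes between -0.33 and -0.27.

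Of the IFIT genes, whose products bind viral RNA and limit its translation, 3 of 4 fell. IFIT2 was measured at 3.08, 3.301 and 4.54 CPM in shLuc and 0.734, 1.57 and 0.926 CPM in shWDR5, which is 0.304 times the control level (log2 fold change -1.72, SE 0.24, adjusted p = 0.000175). IFIT3, the binding partner of IFIT1, gave 5.95, 6.09 and 6.84 CPM in shLuc and 2.78, 3.097 and 3.02 CPM in shWDR5, with little spread within either group (log2 fold change -1.08, SE 0.10, adjusted p = 8.29e-06). IFIT5, the most abundant of the 4 per length at 5.92 RPKM in shLuc, was measured at 22.99, 24.2 and 24.5 CPM in shLuc and 12.3, 14.8 and 15.4 CPM in shWDR5 (log2 fold change -0.75, SE 0.09, adjusted p = 4.35e-05). IFIT1 lies between IFIT3 and IFIT5 on chromosome 10 and did not pass. Its values of 1.801, 1.37 and 2.18 CPM in shLuc and 1.47, 1.57 and 1.35 CPM in shWDR5 overlapped (log2 fold change -0.29, SE 0.17, adjusted p = 0.186, 95% interval -0.67 to 0.10). Without shLuc replicate 2, the lowest control library, IFIT1 passed as lower at -0.44.

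The IFITM proteins sit in cell and endosome membranes and hinder virus fusion, and all 3 fell by unequal amounts. IFITM1 was measured at 15.1, 12.9 and 13.5 CPM in shLuc and 5.42, 4.93 and 4.37 CPM in shWDR5 and fell to 0.355 times (log2 fold change -1.49, SE 0.10, adjusted p = 1.11e-06). IFITM2 gave 18.4, 17.7 and 17.2 CPM in shLuc and 11.9, 12.6 and 11.6 CPM in shWDR5 (log2 fold change -0.56, SE 0.07, adjusted p = 6.58e-05). IFITM3 was by far the most abundant per length, 112 RPKM in shLuc against 19.3 for IFITM1, and moved least, with 80.1, 72.96 and 70.8 CPM in shLuc and 62.3, 63.6 and 60.8 CPM in shWDR5 (log2 fold change -0.26, SE 0.06, adjusted p = 0.00426). The 3 genes are close paralogs, and how reads that match several of them were counted is not given in the sources used here, so their separate values are uncertain. BST2, or tetherin, which holds budding viruses at the cell surface, was measured at 133, 121 and 129 CPM in shLuc and 140.2, 127 and 131 CPM in shWDR5. These ranges overlapped, and the 95% interval of its log2 fold change was -0.08 to 0.19 (adjusted p = 0.465).

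**Figure D3:**
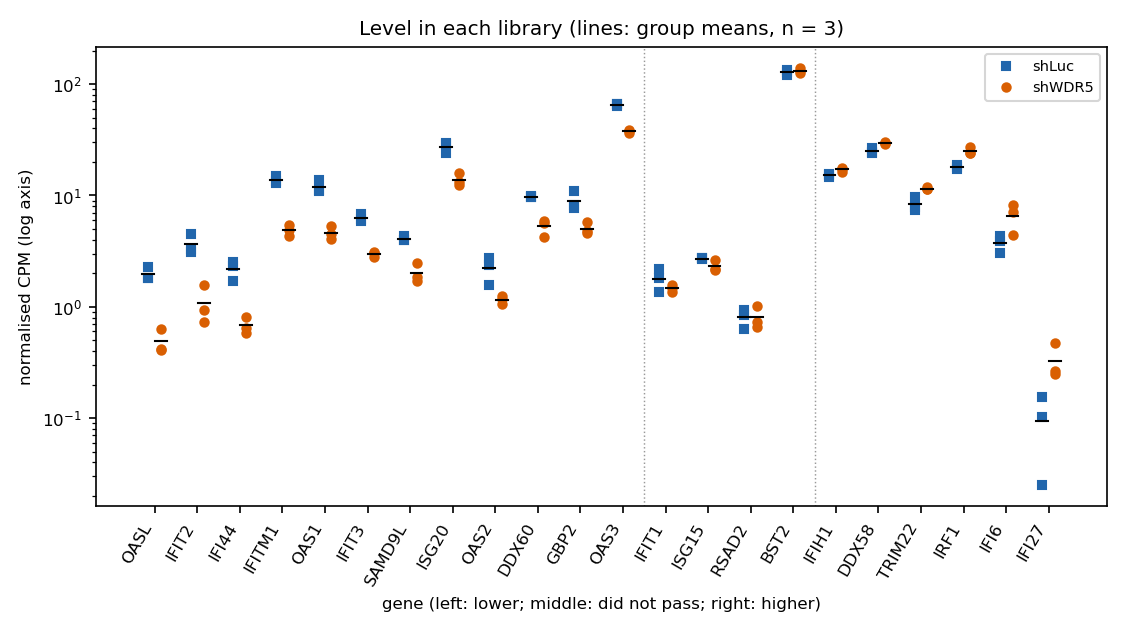
Normalised CPM on a log axis (vertical) in each of the 3 shLuc libraries (squares) and 3 shWDR5 libraries (circles) for 22 genes (horizontal axis), with group means as lines. The 12 genes with the largest decreases are on the left, 4 that did not pass are in the middle and the 6 that rose are on the right. On the left all circles lie below all squares, which picking the largest decreases from these same libraries favours. The share of all genes tested with such separation was not computed.

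Of the interferon-induced GTPases, 3 of 3 tested fell. GBP1 and GBP2 attack vacuoles that hold pathogens. GBP2 was measured at 8.14, 7.74 and 10.95 CPM in shLuc and 4.79, 5.74 and 4.57 CPM in shWDR5 (log2 fold change -0.82, SE 0.14, adjusted p = 0.000621), and GBP1 at 13.2, 13.05 and 14.7 CPM in shLuc and 8.12, 9.15 and 8.43 CPM in shWDR5 (log2 fold change -0.67, SE 0.08, adjusted p = 6.20e-05). Neither gene had overlapping groups. MX1, which traps viral nucleocapsids, was low in this line, at 0.203 RPKM in shLuc. It gave 0.688, 0.671 and 0.867 CPM in shLuc and 0.604, 0.387 and 0.375 CPM in shWDR5 (log2 fold change -0.71, SE 0.24, adjusted p = 0.0292), and the call ended without shLuc replicate 3 or shWDR5 replicate 2 or 3, with log2 fold changes between -0.60 and -0.59. MX2 had at most 2 counts in any library and was not tested.

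In the ISG15 pathway 3 of 4 tested genes fell, and ISG15 itself did not pass. ISG15 is a ubiquitin-like protein that is attached to other proteins, and it was measured at 2.73, 2.68 and 2.73 CPM in shLuc and 2.63, 2.15 and 2.18 CPM in shWDR5. All 3 shWDR5 libraries lay below the shLuc libraries, yet the difference did not pass (log2 fold change -0.23, SE 0.12, adjusted p = 0.125, 95% interval -0.49 to 0.03). It passed without shWDR5 replicate 1, at -0.33. UBE2L6, the conjugating enzyme for ISG15, gave 18.5, 18.5 and 17.3 CPM in shLuc and 12.1, 11.3 and 11.9 CPM in shWDR5 (log2 fold change -0.62, SE 0.07, adjusted p = 3.23e-05). HERC6, a relative of HERC5, was measured at 9.73, 8.38 and 10.7 CPM in shLuc and 6.93, 6.91 and 7.37 CPM in shWDR5 (log2 fold change -0.44, SE 0.10, adjusted p = 0.00278). USP18, which removes ISG15 and dampens the type I receptor, gave 7.41, 7.79 and 7.06 CPM in shLuc and 5.66, 5.47 and 5.43 CPM in shWDR5 (log2 fold change -0.43, SE 0.08, adjusted p = 0.00113). HERC5, the main human ligase for ISG15, had 3 to 15 counts per library and was not tested. Whether the enzymes and ISG15 differed in their response was not tested.

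Of the transcription factors, IRF1 rose while IRF7 and IRF9 fell. IRF1, an activator strongly induced by interferon gamma, was measured at 18.98, 17.3 and 18.02 CPM in shLuc and 27.3, 24.1 and 24.2 CPM in shWDR5 and rose to 1.39 times (log2 fold change 0.48, SE 0.07, adjusted p = 0.000337). IRF7, which drives interferon alpha genes and amplifies the response, was measured at 8.36, 7.74 and 7.14 CPM in shLuc and 4.71, 4.35 and 5.07 CPM in shWDR5 and fell to 0.606 times (log2 fold change -0.72, SE 0.10, adjusted p = 0.00011). Neither factor showed any overlap between groups. IRF9, the DNA-binding partner of STAT2, gave 14.5, 14.4 and 12.9 CPM in shLuc and 12.02, 12.2 and 12.5 CPM in shWDR5, a small decrease (log2 fold change -0.19, SE 0.07, adjusted p = 0.0459). Its call ended under DESeq2's scaling and upper-quartile scaling and without any 1 library other than shLuc replicate 3, with log2 fold changes between -0.20 and -0.15. SP110, a nuclear body protein, did not pass, at a log2 fold change of -0.19 (adjusted p = 0.0811).

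PARP9, PARP14 and DTX3L all fell. They are ADP-ribosyltransferases and a ubiquitin ligase, and PARP9 and DTX3L form a pair. PARP9 was measured at 33.3, 36.7 and 43.6 CPM in shLuc and 27.5, 27.2 and 26.00 CPM in shWDR5 (log2 fold change -0.49, SE 0.09, adjusted p = 0.00111). DTX3L gave 52.6, 55.5 and 56.1 CPM in shLuc and 39.5, 39.4 and 42.4 CPM in shWDR5 (log2 fold change -0.44, SE 0.06, adjusted p = 0.000134) and PARP14 gave 72.3, 74.8 and 79.1 CPM in shLuc and 55.9, 57.5 and 57.5 CPM in shWDR5 (log2 fold change -0.40, SE 0.06, adjusted p = 0.000152). PARP9 and DTX3L lie head to head on chromosome 3 and share 185 exonic bases on opposite strands, 2.3% of the exonic length of PARP9 and 3.2% of that of DTX3L. Since no strand setting is given in the sources used here, reads in those bases cannot be assigned with certainty.

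Among the other antiviral effectors, SAMD9L, EIF2AK2 and SAMD9 fell and TRIM22 rose. SAMD9L, which restrains translation during infection, was measured at 3.95, 3.95 and 4.31 CPM in shLuc and 1.71, 2.46 and 1.85 CPM in shWDR5 and fell to 0.499 times (log2 fold change -1.003, SE 0.14, adjusted p = 0.000151). Its neighbour SAMD9 had a higher level per length and overlapped between groups, at 46.6, 60.2 and 61.1 CPM in shLuc and 40.6, 44.3 and 48.8 CPM in shWDR5 (log2 fold change -0.33, SE 0.11, adjusted p = 0.0222). That call ended without shLuc replicate 2 or 3 or shWDR5 replicate 1 or 2, with log2 fold changes between -0.32 and -0.26. EIF2AK2, which encodes the translation-blocking kinase PKR, gave 53.8, 62.3 and 63.2 CPM in shLuc and 38.8, 43.8 and 43.7 CPM in shWDR5 (log2 fold change -0.50, SE 0.08, adjusted p = 0.000315). TRIM22, a ubiquitin ligase that restricts several viruses, went up in every shWDR5 library, at 7.39, 7.94 and 9.74 CPM in shLuc and 11.4, 11.8 and 11.4 CPM in shWDR5 (log2 fold change 0.47, SE 0.10, adjusted p = 0.00249). RSAD2, or viperin, was below 1.1 CPM in all libraries and did not pass, at a log2 fold change of 0.04 (adjusted p = 0.907). CMPK2, its neighbour, had 0 counts in all 6.

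The remaining interferon-induced proteins held both increases and 1 of the largest decreases. IFI44, a cytoplasmic protein, was measured at 2.31, 1.702 and 2.503 CPM in shLuc and 0.648, 0.581 and 0.816 CPM in shWDR5 and fell to 0.311 times (log2 fold change -1.69, SE 0.20, adjusted p = 4.30e-05). IFI35 gave 9.13, 9.26 and 8.75 CPM in shLuc and 6.304, 5.82 and 5.65 CPM in shWDR5 (log2 fold change -0.61, SE 0.08, adjusted p = 9.96e-05). IFI6 and IFI27 belong to 1 family of small hydrophobic proteins of internal membranes, and both were higher in shWDR5. IFI6 was measured at 3.89, 3.02 and 4.34 CPM in shLuc and 8.14, 4.399 and 7.12 CPM in shWDR5 (log2 fold change 0.79, SE 0.21, adjusted p = 0.00901). The groups did not overlap, although shWDR5 replicate 2 lay just above the highest shLuc library. IFI27 was almost silent in shLuc, with 5, 6 and 1 counts against 22, 14 and 12 in shWDR5. These were 0.101, 0.155 and 0.0248 CPM in shLuc and 0.475, 0.246 and 0.265 CPM in shWDR5. Because IFI27 entered the test only through the group where it was high, its values are given with no test. Its level remained at 0.114 RPKM in shLuc and 0.401 RPKM in shWDR5. XAF1, IFI44L, PLSCR1 and LGALS3BP did not pass. LGALS3BP, a secreted glycoprotein, had the highest level per length of the 49, 254 RPKM in shLuc, and its groups overlapped at 599, 569 and 553 CPM in shLuc and 636, 591 and 564 CPM in shWDR5 (95% interval of the log2 fold change -0.08 to 0.19, adjusted p = 0.45). PLSCR1, a phospholipid scramblase, was higher in each shWDR5 library, at 25.99, 27.5 and 29.2 CPM in shLuc and 30.8, 29.7 and 31.2 CPM in shWDR5, without passing (log2 fold change 0.15, SE 0.07, adjusted p = 0.0748). It passed as higher with DESeq2's size factors (0.17), with upper-quartile scaling (0.19) and without shLuc replicate 3 (0.19). EPSTI1 had at most 2 counts and RTP4 had 0 in every library.

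Genes that fell and genes that rose were set side by side as a description, since the direction itself forms the groups. The 29 that fell spanned log2 fold changes of -1.97 to -0.19 with a median of -0.71, and the 6 that rose spanned 0.18 to 1.77 with a median of 0.47. In shLuc the genes that fell ranged from 0.203 to 112 RPKM with a median of 4.75, and those that rose ranged from 0.114 to 5.30 RPKM with a median of 4.29. Exonic lengths overlapped, from 668 to 7975 bases with a median of 3495 among those that fell and from 819 to 4756 with a median of 3322 among those that rose. The top level of 5.30 RPKM among genes that rose rests on 6 genes. PLSCR1, at 12.5 RPKM in shLuc, passed as higher only in some alternative fits. IFI27, which entered the test only through shWDR5, set the highest fold change, the lowest level and the shortest length among the 6 that rose. The roles were also split by whether any of their genes rose. The absence of increases in 1 part is therefore fixed by the split, which also favours a high share of decreases there. The roles without an increase were OAS and ISG20, IFIT, membrane restriction, GTPase, ISG15 and PARP. They held 20 of the 29 genes that fell, among 23 tested. The other 9 that fell shared their roles with the 6 that rose, among 21 genes tested. Over all genes tested 29.9% fell and 26.6% rose. Neither part can be compared with those shares, because the calls themselves formed the parts. The genes that rose were a pair of RNA sensors, 1 transcription factor, 1 ubiquitin ligase and IFI6, besides its family member IFI27. The call on IFIH1, 1 of the sensors, was marginal. IFI27 had to be high in shWDR5 to be tested, so it adds no support for a rise of that family.

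The directions were also set against position. On the hg19 gene models of the count table, 24 of the 49 genes lay within 100 kb of another, forming 10 clusters. Of the 21 tested genes in these clusters, 18 fell and 0 rose by edgeR at an adjusted p under 0.05, and 0 rose at an unadjusted p under 0.05 or by DESeq2. That is 85.7% lower, beside 65.9% of the 44 interferon-stimulated genes tested and 29.9% of all genes tested. Hence 18 of the 29 genes that fell and 0 of the 6 that rose had a neighbour from the set. The IFIT cluster (chr10:91061706-91180759) held IFIT2, IFIT3, IFIT1 and IFIT5 in that order, with log2 fold changes of -1.72, -1.08, -0.29 and -0.75. In the OAS cluster (chr12:113344739-113449528), OAS1, OAS3 and OAS2 followed at -1.38, -0.79 and -0.96. The IFITM cluster (chr11:308107-320914) placed IFITM1 at -1.49 between IFITM2 at -0.56 and IFITM3 at -0.26. Neighbours could also differ in size: IFI44 fell at -1.69 while IFI44L, 3.6 kb upstream, was measured at 0.465, 0.413 and 0.991 CPM in shLuc and 0.497, 0.475 and 0.419 CPM in shWDR5 and gave -0.41 with an interval of -1.14 to 0.33. Without shLuc replicate 3, the highest library, IFI44L gave 0.071. Neighbouring paralogs are not independent of each other, and no test of the clustering was made.

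**Figure D4:**
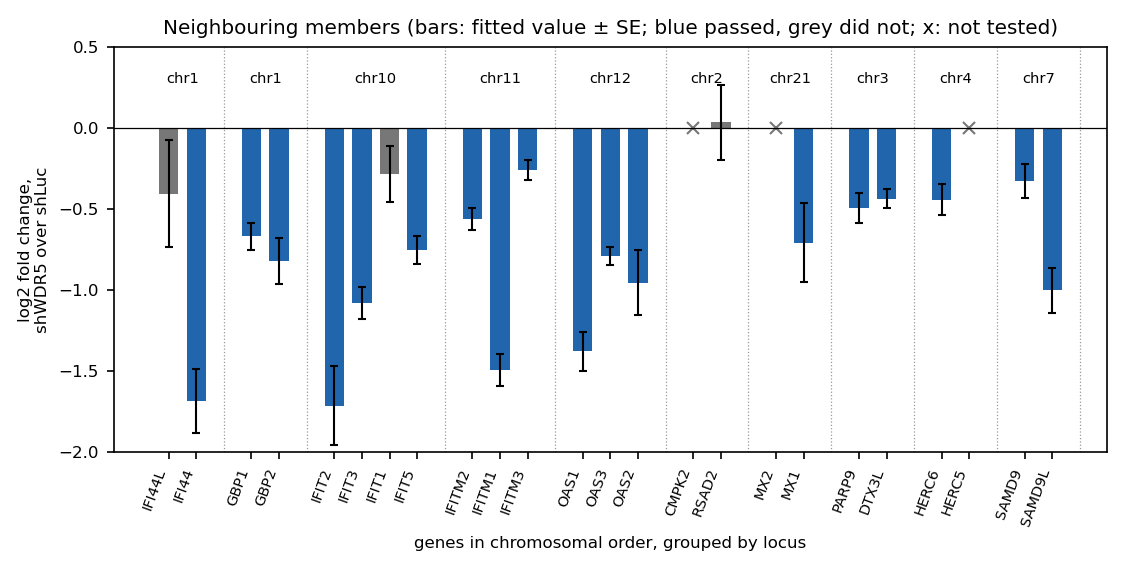
Log2 fold change of shWDR5 over shLuc (vertical axis, bars with SE) for the 24 interferon-stimulated genes in 10 clusters, in chromosomal order within each cluster (horizontal axis). Blue bars passed the test and are all below 0, grey bars did not pass, and crosses mark the 3 genes that were not tested.

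Some signalling genes upstream of this set rose and others fell. Of 40 genes for ligands, receptors, kinases, STATs, regulators, nucleic acid sensing and other IRF factors, 32 were tested, 13 rose (40.6%), 9 fell (28.1%) and 10 did not pass, with a median log2 fold change of 0.10. Over all genes tested 26.6% rose and 29.9% fell, so the share that fell was near that background. IFNA1 passed the filter only through its shWDR5 libraries, and over the 31 genes at the filter level in all 6 libraries 12 rose and 9 fell, with a median of 0.08. Among ligands, IFNB1 and IFNG had 0 counts in all libraries. IFNA1 was low, with 7, 8 and 6 counts in shLuc and 24, 27 and 22 in shWDR5. Having entered the test only through the group where it was high, it is given as counts with no test. The interferon alpha genes are near-identical copies, so reads assigned to IFNA1 may belong to another. IFNE, an epithelial type I interferon, was measured at 4.999, 5.11 and 4.31 CPM in shLuc and 7.77, 6.91 and 8.01 CPM in shWDR5 and rose (log2 fold change 0.65, SE 0.10, adjusted p = 0.000271). IFNB1, IFNG, IFNE, IL10RB, JAK2, IKBKE, IRF5, CXCL11, IFI16, ZNFX1 and MOV10 were picked after their values were seen. So were the markers CD68, LYZ, EPCAM, KRT8, KRT18, COL1A1, PECAM1, CDH5 and TCF4.

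The receptor subunits moved in opposite directions. IFNAR1 was measured at 57.7, 71.6 and 70.3 CPM in shLuc and 39.6, 49.3 and 51.8 CPM in shWDR5 and fell (log2 fold change -0.50, SE 0.11, adjusted p = 0.00261), whereas IFNAR2 gave 43.9, 45.4 and 42.4 CPM in shLuc and 56.9, 55.7 and 57.9 CPM in shWDR5 and rose (log2 fold change 0.37, SE 0.06, adjusted p = 0.000264). IFNLR1, the specific subunit of the interferon lambda receptor, was measured at 8.36, 7.07 and 7.41 CPM in shLuc and 4.04, 3.26 and 3.33 CPM in shWDR5 and fell to 0.463 times (log2 fold change -1.11, SE 0.11, adjusted p = 1.54e-05). Its partner IL10RB also fell, at a log2 fold change of -0.26 (adjusted p = 0.00817). Of the kinases, JAK1 fell slightly (log2 fold change -0.21, SE 0.05, adjusted p = 0.00728), and TYK2 (log2 fold change 0.41, SE 0.06, adjusted p = 0.000188) and JAK2 (log2 fold change 0.51, SE 0.12, adjusted p = 0.00317) rose. STAT2 was measured at 66.1, 64.8 and 61.9 CPM in shLuc and 60.3, 58.5 and 57.1 CPM in shWDR5 and did not pass (log2 fold change -0.13, SE 0.06, adjusted p = 0.0658). IKBKE, a kinase that activates IRF factors, rose at a log2 fold change of 0.71 (adjusted p = 1.36e-05). IRF5 fell at a log2 fold change of -0.72 (adjusted p = 1.94e-05).

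In a further list of 38 interferon-responsive genes outside the 49, more genes fell than rose. Of 37 tested, 19 fell (51.4%), 7 rose (18.9%) and 11 did not pass, with a median log2 fold change of -0.18. Over all genes tested 29.9% fell and 26.6% rose, with a median of -0.01. The difference between the lists was not tested. PSMB9, a subunit of the immunoproteasome, was measured at 9.13, 7.97 and 7.56 CPM in shLuc and 2.81, 2.604 and 2.12 CPM in shWDR5 and fell to 0.305 times (log2 fold change -1.71, SE 0.12, adjusted p = 1.57e-06). APOL6, an apolipoprotein L family member, gave 41.97, 46.9 and 45.7 CPM in shLuc and 15.1, 17.01 and 15.5 CPM in shWDR5 (log2 fold change -1.50, SE 0.07, adjusted p = 2.17e-07). BATF2, a transcription factor induced by interferon gamma, gave 1.295, 1.19 and 0.892 CPM in shLuc and 0.324, 0.545 and 0.463 CPM in shWDR5 (log2 fold change -1.33, SE 0.24, adjusted p = 0.000731). The chemokine CXCL10, which attracts T cells and is induced with many of the 49, went strongly the other way. It was measured at 0.911, 0.877 and 1.14 CPM in shLuc and 10.6, 9.54 and 10.6 CPM in shWDR5, a 10.5-fold rise with no overlap (log2 fold change 3.39, SE 0.12, adjusted p = 4.17e-08). CXCL11, its neighbour in the same chemokine family, did not pass, at 0.283, 0.155 and 0.223 CPM in shLuc and 0.237, 0.387 and 0.463 CPM in shWDR5. The DNA sensor IFI16 rose at a log2 fold change of 0.53 (adjusted p = 0.000228) and the RNA helicase ZNFX1 at a log2 fold change of 0.75 (adjusted p = 3.94e-06), while the helicase MOV10 fell at a log2 fold change of -0.73 (adjusted p = 4.26e-06).

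**Figure D5:**
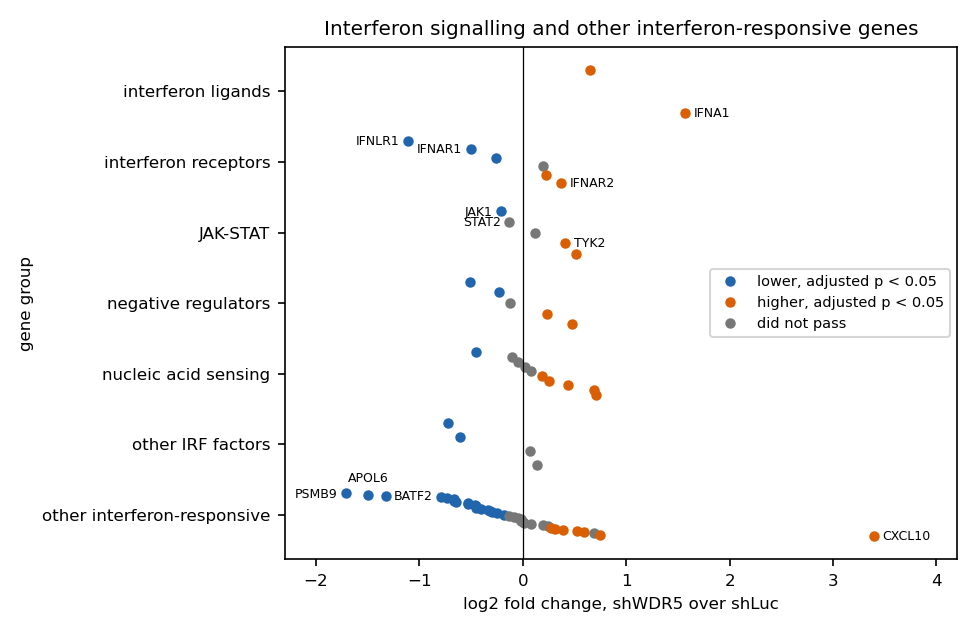
Log2 fold change of shWDR5 over shLuc (horizontal axis) for tested interferon signalling genes by group and for the further list of interferon-responsive genes (vertical axis, 1 point per gene, spread vertically only for legibility). CXCL10 at 3.39 stands to the right, as does IFNA1, which entered only through shWDR5, PSMB9, APOL6 and BATF2 to the left, and the receptor subunits fall on both sides of 0.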

How the data were processed

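Poly-A RNA from 6 MCF10DCIS.com libraries was prepared with the TruSeq kit and sequenced on an Illumina instrument. Per the submitters' processing notes, the authors aligned reads with TopHat2 2.1.0 to hg19 and counted them per gene with featureCounts. The deposited table holds raw counts per gene (not normalized) with the gene model's exonic length. Strand and multi-read settings were not given in the sources used here. A deposited table of the authors' own comparison (fold changes and p-values) was not used. The members and lists were chosen with earlier results of these data known.

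Counts were tested with edgeR 4.0.16 in R 4.3.3 (TMM scaling, expression filter by group, quasi-likelihood F-test, Benjamini-Hochberg adjustment over 16117 genes, threshold 0.05). All 6 samples entered 1 fit with group as the only term. CPM used TMM-scaled library sizes, from totals of 38218108 to 57640167 counts, and RPKM divided CPM by length. Values in every sample were given for members that rose, the 12 largest decreases and called members of a family or cluster. Of other lists, genes with an absolute log2 fold change of at least 1, IFNAR1, IFNAR2, JAK1, TYK2 and STAT2 were named by rule. Some genes counted in the lists are not reported here by name. The scripts were tested on simulated data. Alternatives were DESeq2 1.42.0, edgeR's exact test, other scalings, no filter, the study's thresholds, a replicate block and leaving out each library.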

Additional observations from a re-analysis of the deposited data

How the results depend on the processing

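Under 12 alternative fits, 30 of the 35 interferon-stimulated genes that passed kept their call and direction, 5 lost the call in at least 1 fit (IFIH1, DHX58, MX1, IRF9 and SAMD9), and 0 of the 35 reversed. IFIH1, DHX58, MX1 and IRF9 did not pass by DESeq2's Wald test, and IFIH1 did not pass by edgeR's exact test either. Genes that fell numbered 25 to 29 and genes that rose 5 to 7. Leaving out 1 library gave 25 to 27 lower and 5 to 6 higher, 10 to 12 higher and 9 to 10 lower signalling genes, 7 to 8 higher and 16 to 17 lower other interferon-responsive genes, and 3781 to 4104 higher and 4260 to 4631 lower of all genes. The study's thresholds left 16 lower and 1 higher of the 49, 3 higher and 3 lower signalling genes, 2 higher and 6 lower other interferon-responsive genes, and 1274 higher and 1688 lower of all genes, since they add a minimum change and level. RSAD2, which did not pass, changed sign without shLuc replicate 1 (-0.13) or shWDR5 replicate 2 (-0.19), for a range of -0.19 to 0.16 over the left-out libraries, and IFI44L, which did not pass either, without shLuc replicate 3 (0.071), for a range of -0.61 to 0.071. PLSCR1 passed as higher and IRF9 no longer passed under DESeq2's size factors and upper-quartile scaling. With no filter on low counts, MX2, HERC5 and EPSTI1 did not pass. The median of all genes moved by less than 0.1 on the log2 scale under every scaling.

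Same-numbered libraries did not deviate together throughout (correlations of 0.06 to 0.56), and shLuc replicate 2 correlated best with another number, so the numbers were not taken as pairs. With the replicate number as a block, 29 fell and 7 rose, with PLSCR1 added at 0.15. Under the same block 16 signalling genes rose and 12 fell, with IFNGR1 (0.20) and STAT2 (-0.13) among those added. Shares of all genes under the block are not given here. These counts therefore cannot be read against the 26.6% higher and 29.9% lower of the main fit.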
